A study of Homo sapiens with 6 samples.

Results

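The genes examined here encode the ligands, receptors and signal transducers of the transforming growth factor beta (TGF-beta) superfamily, with the secreted antagonists and the ID genes. They were chosen by symbol from the table of read counts, which listed 57 of them among 56832 gene symbols. The set comprised 3 TGF-beta genes, 19 BMP and GDF ligand genes, BMP1, 5 activin and inhibin subunit genes, 4 antagonist genes, BAMBI, 12 receptor genes, 8 SMAD genes and 4 ID genes. GDF15 was left out. Poly(A)-selected RNA was measured in 3 libraries labelled SMARCA3 KO 293T and in 3 libraries labelled WT 293T. SMARCA3 is the protein encoded by HLTF, a SNF2-family helicase and ubiquitin ligase, and HEK293T is an embryonic kidney cell line of human origin, transformed with adenovirus sequence and making SV40 large T antigen. All cells grew in DMEM with fetal bovine serum and antibiotics, and no ligand or inhibitor of the pathway is named in the labels. The labels do not say how the knockout was made, whether it is 1 clone or a pool, or whether replicates were separate cultures, so each p-value reflects the spread among these libraries alone, and that spread may be technical.

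Ligands of this superfamily bind pairs of type I and type II serine/threonine kinase receptors, and the type I receptor phosphorylates receptor SMADs. TGF-betas and activins act mainly through SMAD2 and SMAD3, and BMPs mainly through SMAD1, SMAD5 and SMAD9. These join SMAD4 and enter the nucleus, where SMAD6 and SMAD7 are induced as feedback inhibitors and the ID genes are classical BMP targets. ID proteins bind basic helix-loop-helix factors and keep them off DNA. In the developing kidney, BMP7 maintains nephron progenitors and GDF11 acts in ureteric bud outgrowth.

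Total counts ran from 33125811 to 36804337 in the knockout libraries and from 38199454 to 41593655 in the wild-type libraries, so each knockout library was shallower. HLTF, the targeted gene, measured 140.8, 139.9 and 149.4 counts per 1000000 (CPM) in knockout replicates and 215.3, 191 and 194.8 CPM in wild-type replicates (143 ± 5.26 and 200.3 ± 13.1 CPM, SD, n = 3 each). The log2 fold change was -0.48 (SE 0.05, edgeR adjusted p = 4.65e-05), and the 40 expressed genes nearest to it had a median of -0.50. Loss of the protein cannot be read from counts per gene. Of 7 markers of HEK293T and early nephric epithelium, 6 averaged at least 1 CPM and KRT19 had 0 counts. Of these 7, 1 was called higher and 4 lower, where 14.0% of all 18061 tested genes were called higher and 17.7% lower. Their summed level, mostly VIM and CDH2, was 233.7 to 236 CPM in knockout and 323 to 343 CPM in wild-type libraries, while PAX2 averaged 10.8 CPM in knockout and 4.52 CPM in wild-type cells. The sum of 3 neuronal genes known in this line was 122.5 to 126.6 CPM in knockout and 159.5 to 165.4 CPM in wild-type libraries, and NEFM averaged 0.0499 CPM in knockout and 34.8 CPM in wild-type cells. The sum of 8 mature nephron markers was 20.6 to 21.1 CPM in knockout and 39.1 to 44.9 CPM in wild-type libraries, nearly all from LRP2. The part of these marker differences in the results below was not tested. In such bulk libraries, fewer cells of a type and less RNA per cell cannot be told apart.

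Of the 57 genes, 47 had enough counts to test, and 17 of these differed between knockout and wild-type cells, 10 higher and 7 lower in the knockout (edgeR quasi-likelihood test, adjusted p under 0.05 over all tested genes). That is 36.2% of the tested members, near the 31.8% of all 18061 tested genes that were called, with 14.0% called higher and 17.7% lower. TGFB1, BMP2, BMP6, GDF6, NOG, ACVR2B, SMAD3, SMAD6, SMAD7 and ID4 rose. TGFB3, BMP3, BMP4, ACVR1C, SMAD1, SMAD9 and ID2 fell. The median log2 fold change was 0.03 over the 47 tested members and 0.00 over all tested genes, and only BMP3 and ACVR1C changed by at least 1 on the log2 scale among the 17. The ranges of knockout and wild-type CPM did not overlap for the 17 called members or for 9 others, 26 of 47 against 45.6% of all tested genes. Leaving out knockout replicate 1 or knockout replicate 2 left 4 members called lower.

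**Figure D1:**
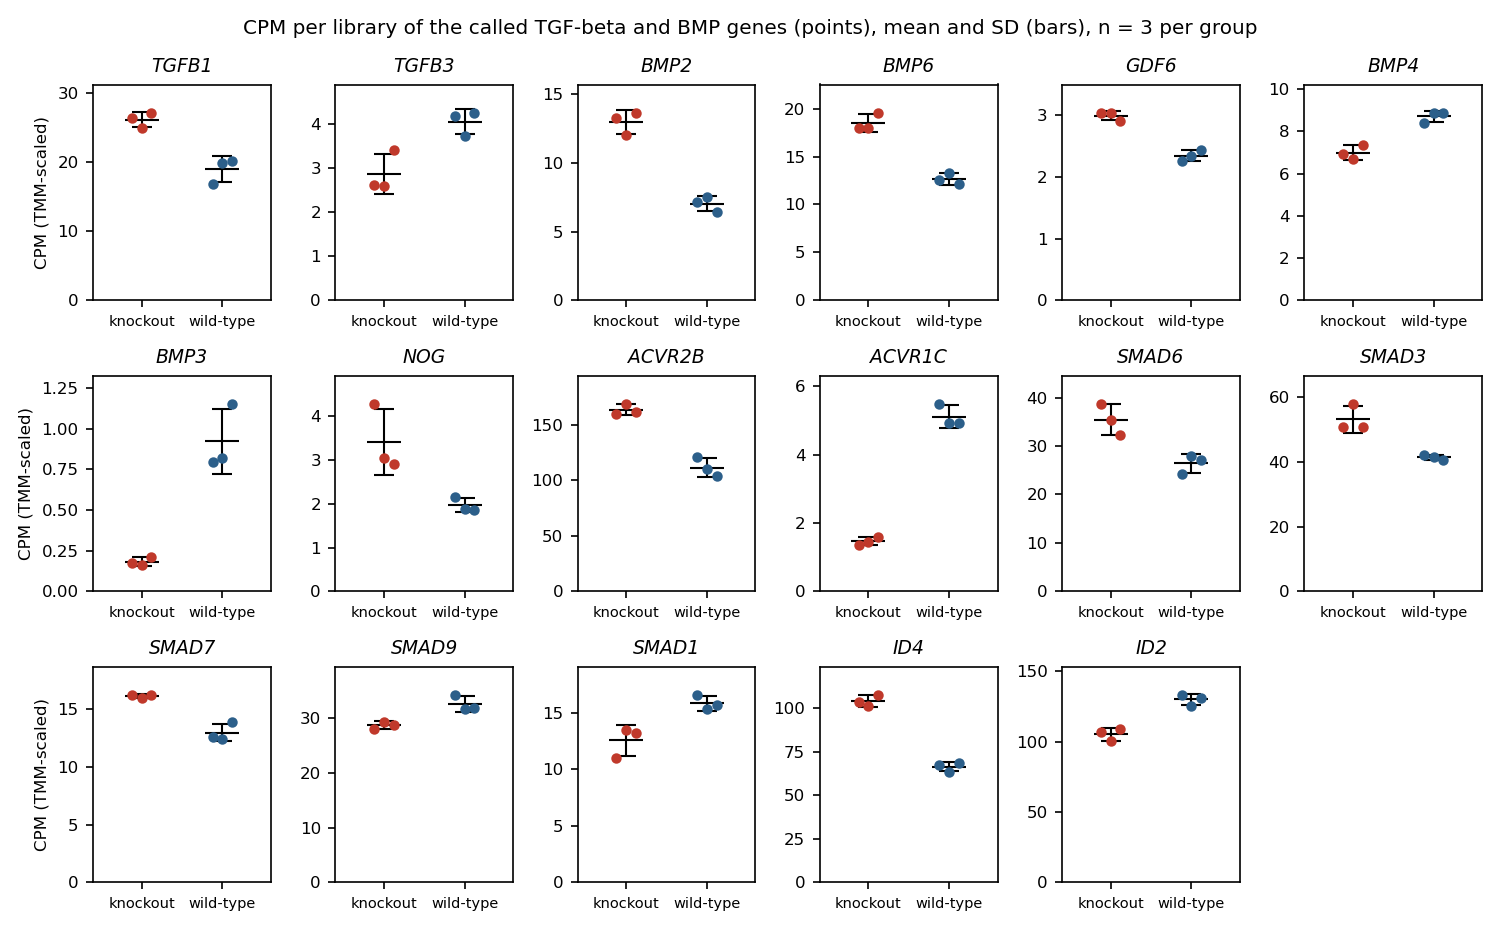
CPM per library (points) with mean and SD (bars, n = 3 per group) of the 17 called genes, ordered by role, with knockout left of wild-type in each panel and each vertical axis starting at 0. In each of the 17 panels the 3 knockout points lie wholly above or wholly below the 3 wild-type points.

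The TGF-beta genes moved in opposite directions. TGFB1, which encodes the most widely expressed TGF-beta, measured 26.4, 25.0 and 27.2 CPM in knockout replicates 1 to 3, against 16.8, 19.9 and 20.2 CPM in wild-type replicates 1 to 3. All knockout libraries were above all wild-type libraries, and the log2 fold change was 0.47 (SE 0.08, edgeR adjusted p = 0.00118). TGFB3, which acts in palate and lung development, measured 2.62, 2.58 and 3.39 CPM in knockout and 4.17, 3.72 and 4.25 CPM in wild-type replicates. It fell, with a log2 difference of -0.50 (SE 0.13, edgeR adjusted p = 0.0139), and knockout replicate 3 came closest to the wild-type libraries. Without knockout replicate 1 or knockout replicate 2 its edgeR adjusted p was 0.0563 and 0.0643 in turn, and it was then not called (range over its alternatives 0.00171 to 0.0643). TGFB2 stood at 1.07 ± 0.214 CPM in knockout and 1.06 ± 0.235 CPM in wild-type cells, with a log2 fold change of 0.01 (SE 0.22) whose error leaves a change of moderate size undetectable at this depth. Exons of TGFB1 overlap HNRNPUL1 on the other strand by 215 bases and those of TGFB3 overlap TGFB3-AS1 by 163 bases. Those of TGFB2 overlap TGFB2-OT1 on the same strand by 1371 bases, which counting by strand would not separate. Whether reads were counted by strand is not given in the sources used here. How reads shared with such partners were counted is not given either, so they may be mixed or left out.

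BMP2 and BMP6 rose and BMP4 and BMP3 fell among the BMP and GDF ligands, of which 11 of 19 were tested, 3 rose, 2 fell and 6 were not called. Over all tested genes, 31.8% were called. BMP2, a ligand of bone and heart development, measured 13.2, 11.98 and 13.6 CPM in knockout replicates and 7.13, 7.49 and 6.45 CPM in wild-type replicates. The groups were well apart, and the log2 difference of 0.88 (SE 0.09, edgeR adjusted p = 2.89e-05) was the largest rise among the called members. Its closest relative BMP4, with which it shares receptors, measured 6.93, 6.68 and 7.36 CPM in knockout and 8.39, 8.85 and 8.89 CPM in wild-type replicates. BMP4 fell, with a log2 difference of -0.32 (SE 0.08, edgeR adjusted p = 0.0124), but was not called without knockout replicate 2 (edgeR adjusted p = 0.0611) or with DESeq2 (adjusted p = 0.0524, range over its alternatives 0.00903 to 0.0611). BMP2 lies at chr20:6767664-6780280 and BMP4 at chr14:53949736-53958761 (hg38).

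BMP6, which in liver sets hepcidin production, measured 17.9, 17.95 and 19.6 CPM in knockout against 12.5, 13.3 and 12.1 CPM in wild-type replicates. All knockout values exceeded all wild-type values, and the log2 fold change was 0.55 (SE 0.07, edgeR adjusted p = 0.000187). GDF6, a ligand of joint and eye development, measured 3.03, 3.04 and 2.91 CPM in knockout and 2.27, 2.34 and 2.44 CPM in wild-type replicates. It was called higher (0.35 on the log2 scale, SE 0.11, edgeR adjusted p = 0.0357), a call lost in 8 of 14 alternatives, among them leaving out any 1 library other than wild-type replicate 3 (edgeR adjusted p of 0.0698 without knockout replicate 3 to 0.104 without knockout replicate 2). BMP3, which opposes other BMPs in bone, was scarce, at 0.175, 0.163 and 0.212 CPM in knockout and 0.795, 0.821 and 1.154 CPM in wild-type replicates. These rest on 19 counts in the 3 knockout libraries and 109 counts in the 3 wild-type libraries, and the log2 difference of -2.31 (SE 0.29, edgeR adjusted p = 0.00016) was the largest fall among the 47 tested members.

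BMP7 and GDF11, the ligands named above for the developing kidney, were not called. BMP7 averaged 46.4 ± 1.11 CPM in knockout and 49.1 ± 2.50 CPM in wild-type cells, a log2 fold change of -0.08 (SE 0.05). GDF11 averaged 41.97 ± 0.308 CPM in knockout and 39.9 ± 0.374 CPM in wild-type cells (log2 fold change 0.07, SE 0.05), although its ranges did not overlap. GDF7, a roof plate ligand of the neural tube, had 19.6 ± 0.331 CPM in knockout and 20.03 ± 1.45 CPM in wild-type cells. BMP8B had 8.78 ± 0.287 CPM in knockout and 10.1 ± 0.613 CPM in wild-type cells (edgeR adjusted p = 0.0711), and the oocyte ligand GDF9 had 1.22 ± 0.433 CPM in knockout and 1.34 ± 0.0872 CPM in wild-type cells. BMP8A, a near copy of BMP8B with which it can exchange reads, had 25, 8 and 20 counts in knockout and 5, 9 and 15 counts in wild-type replicates. Its log2 fold change of 1.05 carried an SE of 0.48, and neither BMP8 gene was called. BMP8A was called higher with no filter on low counts (edgeR adjusted p = 0.0177), without wild-type replicate 3 (0.0461) and without knockout replicate 2 (0.0287). BMP1, which is a procollagen protease and not a BMP-type ligand, averaged 13.4 ± 0.698 CPM in knockout and 11.95 ± 0.533 CPM in wild-type cells and was not called. Exons of GDF7, GDF11 and GDF9 overlap AC012065.4, SARNP and UQCRQ on the other strand by 679, 386 and 306 bases in turn. Those of BMP8A and BMP8B overlap PPIEL and PPIE on the other strand by 267 and 80 bases. Those of BMP1 overlap AC105206.1 on the same strand by 461 bases.

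Ligand genes below the test's minimum were BMP5, BMP10, BMP15, GDF1, GDF2, GDF3, GDF5 and GDF10. BMP10, BMP15, GDF1 and GDF2 had 0 counts in all 6 libraries, and 3 counts in a library, the limit that a count of 0 allows, equal 0.0721 to 0.0906 CPM. All 2517 annotated exon bases of GDF1 overlap CERS1, so a count of 0 does not speak to its RNA. GDF10 had 0, 3 and 0 counts in knockout and 8, 8 and 6 counts in wild-type replicates, and was called lower when the filter on low counts was dropped (log2 fold change -2.56, edgeR adjusted p = 0.00757). GDF3, a NODAL-like ligand, had 1 count in all, in wild-type replicate 1. BMP5 had 6 counts in knockout and 10 in wild-type libraries, and GDF5 had 9 counts in each group.

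None of the 5 activin and inhibin subunit genes was called, where 31.8% of all tested genes were, and 5 genes are too few to read against that share. INHBB, which encodes the activin B subunit and was the most abundant of them per length, averaged 2.56 ± 0.140 CPM in knockout and 2.20 ± 0.385 CPM in wild-type cells (log2 fold change 0.22, SE 0.15). The other 4, INHA, INHBA, INHBC and INHBE, averaged 0.314 to 0.674 CPM in knockout and 0.424 to 0.616 CPM in wild-type cells, with log2 fold changes between -0.49 for INHA and 0.48 for INHBA. INHBA had 21, 24 and 25 counts in knockout and 24, 18 and 15 counts in wild-type replicates, so a small change could not be detected at this depth. Scaled for depth, these were 0.6116 to 0.7575 CPM in knockout and 0.3934 to 0.5784 CPM in wild-type libraries. The ranges did not overlap, but INHBA was not called (SE 0.24, edgeR adjusted p = 0.149).

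Among the secreted antagonists, NOG rose. Noggin binds BMP2, BMP4 and BMP7 and blocks their receptor contact, and its mRNA measured 4.28, 3.04 and 2.91 CPM in knockout replicates, against 2.15, 1.87 and 1.86 CPM in wild-type replicates. Knockout replicate 1 was the highest, the groups did not overlap, and the log2 fold change was 0.80 (SE 0.17, edgeR adjusted p = 0.00413). Chordin (CHRD), which binds BMPs in the same way, averaged 1.04 ± 0.221 CPM in knockout and 1.23 ± 0.00183 CPM in wild-type cells, and the activin antagonist follistatin (FST) 1.05 ± 0.383 CPM in knockout and 1.42 ± 0.101 CPM in wild-type cells. Neither was called. GREM1 had 1 count in each group and was not tested. The pseudoreceptor gene BAMBI, whose product lacks a kinase domain and dampens the pathway, averaged 14.3 ± 0.555 CPM in knockout and 13.0 ± 0.503 CPM in wild-type cells (log2 fold change 0.14, SE 0.07, not called).

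Receptor genes were mostly not called, with 9 of 11 tested not called and 1 called in each direction, where 31.8% of all tested genes were called. Whether receptors differ from other genes in this share was not tested. ACVR1C, which encodes the type I receptor ALK7 for activin B, NODAL and GDF3, measured 1.37, 1.44 and 1.61 CPM in knockout replicates and 5.50, 4.93 and 4.93 CPM in wild-type replicates. Each knockout library was far below each wild-type library, and the log2 fold change was -1.80 (SE 0.12, edgeR adjusted p = 1.56e-06). ACVR2B, a type II receptor for activins, GDF11 and related ligands, measured 159.6, 169 and 161.8 CPM in knockout replicates and 121, 110.1 and 103.5 CPM in wild-type replicates. It rose, with a log2 difference of 0.55 (SE 0.06, edgeR adjusted p = 3.19e-05). ACVR2B lies at chr3:38453851-38493142. Of the 40 expressed genes nearest to it, 26 were called higher and 1 lower, and their median was 0.23 on the log2 scale. With that median removed, ACVR2B was still called at 0.32 (edgeR adjusted p = 0.00175, range over its alternatives 1.29e-21 to 0.00175).

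ACVR1C and ACVR1 lie close together on chromosome 2, and the median log2 fold change of the neighbours was -0.13 for each. ACVR1, the type I receptor ALK2, averaged 11.5 ± 0.913 CPM in knockout and 11.3 ± 0.697 CPM in wild-type cells, a log2 fold change of 0.02 (SE 0.08) that was not called. The type I TGF-beta receptor TGFBR1 averaged 77.0 ± 2.19 CPM in knockout and 74.6 ± 5.34 CPM in wild-type cells, and the activin type I receptor ACVR1B 60.6 ± 1.41 CPM in knockout and 56.1 ± 1.11 CPM in wild-type cells. The BMP receptors BMPR2, BMPR1A and BMPR1B had log2 fold changes of 0.03, -0.16 and 0.19 (SE 0.05, 0.07 and 0.09), and averaged 59.6, 37.3 and 11.4 CPM in knockout and 58.5, 41.5 and 9.96 CPM in wild-type cells. The type II TGF-beta receptor TGFBR2 averaged 9.85 ± 0.442 CPM in knockout and 11.3 ± 0.307 CPM in wild-type cells, just outside the threshold (log2 fold change -0.20, edgeR adjusted p = 0.0599). ACVR2A and the coreceptor TGFBR3 had log2 fold changes of 0.02 and 0.02, at 17.1 and 49.5 CPM in knockout and 16.9 and 48.8 CPM in wild-type cells. Exons of ACVR2A overlap ORC4 on the other strand by 430 bases. BMPR1B was called higher without wild-type replicate 1 (edgeR adjusted p = 0.0251, range over its alternatives 0.0131 to 0.329). ACVRL1, the endothelial receptor ALK1, was not tested, with 4, 8 and 19 counts in knockout and 10, 9 and 9 counts in wild-type replicates.

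**Figure D2:**
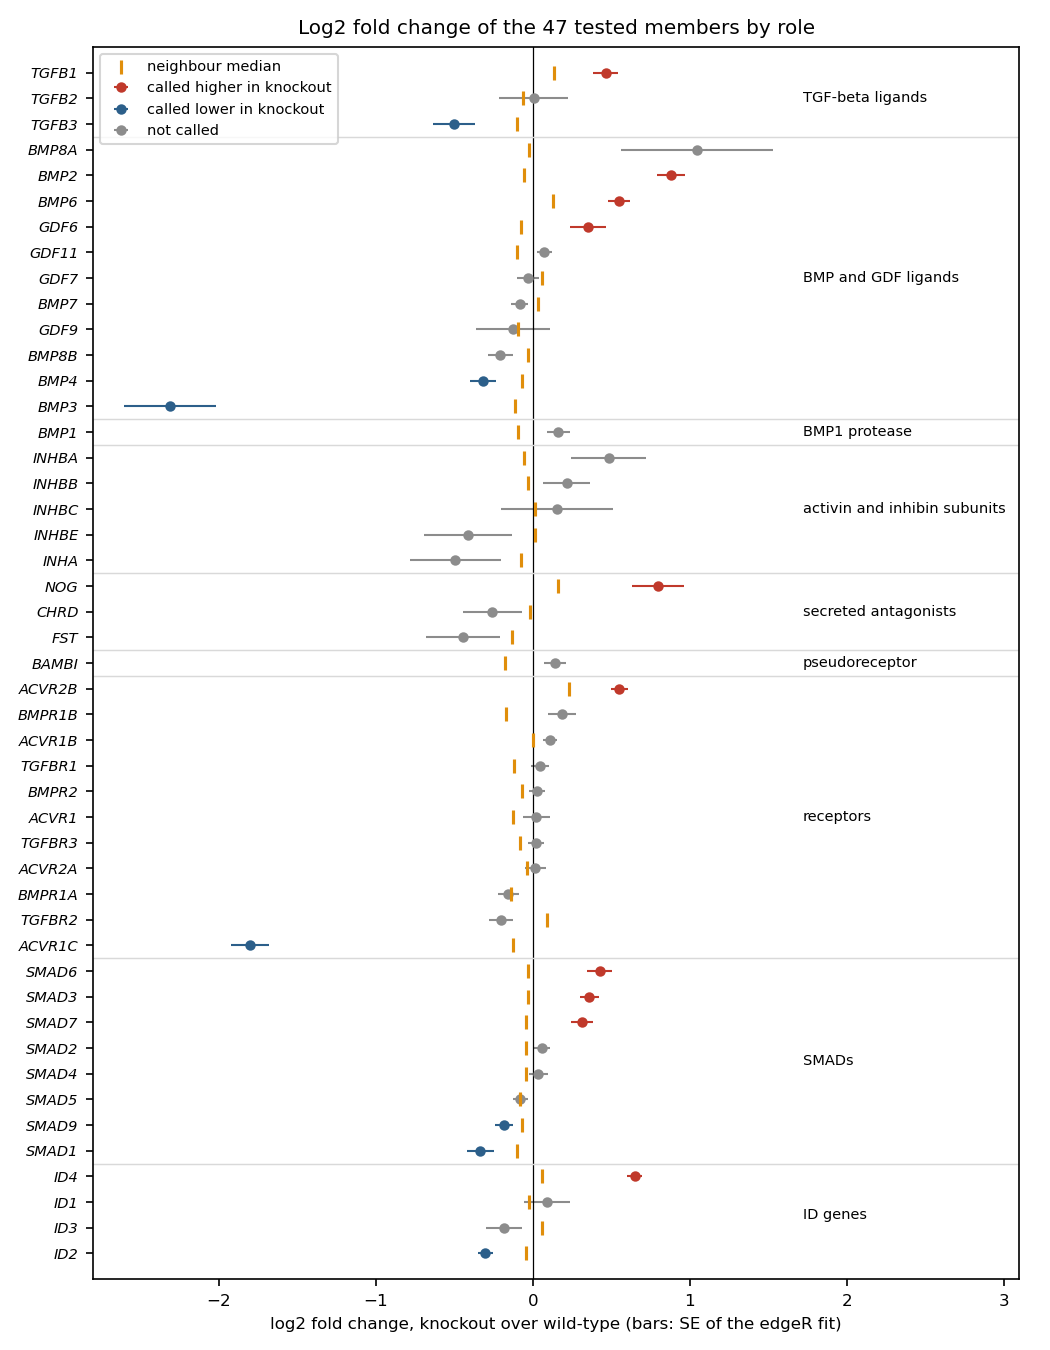
Log2 fold change, knockout over wild-type, of the 47 tested members grouped by role (points, with the SE of the edgeR fit) and the median log2 fold change of each gene's nearest expressed genes on its chromosome (orange ticks). BMP3 at -2.31 and ACVR1C at -1.80 lie far to the left of their neighbour medians, and most receptors lie near 0.

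The inhibitory SMADs and SMAD3 rose, and the BMP SMADs SMAD1 and SMAD9 were called lower. SMAD6, which blocks mainly BMP receptors, measured 38.7, 35.3 and 32.4 CPM in knockout replicates and 24.2, 27.9 and 27.2 CPM in wild-type replicates, with no overlap (log2 fold change 0.43, SE 0.08, edgeR adjusted p = 0.00204). SMAD7, which blocks TGF-beta and BMP receptors alike, measured 16.2, 15.9 and 16.2 CPM in knockout replicates and 12.6, 12.4 and 13.8 CPM in wild-type replicates, and rose with a log2 difference of 0.31 (SE 0.07, edgeR adjusted p = 0.00572). SMAD3, the TGF-beta and activin SMAD that binds DNA directly, measured 50.8, 58.0 and 50.8 CPM in knockout replicates and 42.1, 41.6 and 40.7 CPM in wild-type replicates. Knockout replicate 2 was the highest for SMAD3, the wild-type libraries were close together, and the log2 fold change was 0.36 (SE 0.06, edgeR adjusted p = 0.0012). SMAD3 and SMAD6 are near each other on chromosome 15, at chr15:67063763-67195195 and chr15:66702228-66782848, among genes with median log2 fold changes of -0.03 and -0.03. Exons of SMAD3 overlap the antisense gene AC087482.1 by 182 bases.

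SMAD1, a receptor SMAD of the BMP branch, measured 11.01, 13.5 and 13.2 CPM in knockout replicates, against 16.6, 15.3 and 15.7 CPM in wild-type replicates. It fell, with a log2 difference of -0.34 (SE 0.09, edgeR adjusted p = 0.0128), while without knockout replicate 1, its lowest library, the log2 fold change was -0.24 and the edgeR adjusted p 0.0661 (range over its alternatives 0.00119 to 0.0676). Its exons overlap SMAD1-AS1 on the other strand by 376 bases. SMAD9, a second SMAD of this branch, measured 27.9, 29.3 and 28.7 CPM in knockout and 34.2, 31.6 and 31.7 CPM in wild-type replicates. Its call (log2 fold change -0.18, SE 0.06, edgeR adjusted p = 0.0324) was lost in 10 of the 14 alternatives that kept the 0.05 threshold. These included each of the 6 that left out 1 library, with edgeR adjusted p of 0.0522 without wild-type replicate 3 to 0.162 without knockout replicate 1. SMAD5, the SMAD gene with the highest level per length, averaged 153 ± 2.42 CPM in knockout and 161.9 ± 10.2 CPM in wild-type cells, with a log2 fold change of -0.08 (SE 0.05) that was not called. SMAD2 and the common partner SMAD4 averaged 48.3 ± 1.48 and 52.0 ± 3.89 CPM in knockout and 46.4 ± 2.13 and 50.7 ± 1.89 CPM in wild-type cells, and were not called either. Exons of SMAD5 overlap SMAD5-AS1 on the other strand by 610 bases. Those of SMAD4 overlap AC091551.1 on the same strand by 967 bases.

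The promoters of the SMAD genes that rose are shown with matches to short motifs that SMAD proteins are known to recognise. Binding was not measured here. Each sequence is the 250 bases before a RefSeq start (GRCh38.p14), 5′ to 3′ on the gene's strand. The windows are chr15:66701986-66702235 (plus strand) for SMAD6, chr18:48950966-48951215 (minus strand) for SMAD7 and chr15:67065352-67065601 (plus strand) for SMAD3. Those of SMAD7 and SMAD3 lie inside the annotated genes. Other starts of these genes were not searched, so a motif missing here may lie before another start. Capitals mark the SMAD box CAGAC, the palindrome of SMAD boxes GTCTAGAC and the GC-rich SMAD element GGCGCC, each searched on both strands.
SMAD6: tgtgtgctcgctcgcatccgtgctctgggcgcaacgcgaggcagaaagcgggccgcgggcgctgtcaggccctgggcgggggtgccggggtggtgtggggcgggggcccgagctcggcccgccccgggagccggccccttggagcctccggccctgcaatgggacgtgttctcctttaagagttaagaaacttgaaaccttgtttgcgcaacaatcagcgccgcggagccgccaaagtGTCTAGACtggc
SMAD7: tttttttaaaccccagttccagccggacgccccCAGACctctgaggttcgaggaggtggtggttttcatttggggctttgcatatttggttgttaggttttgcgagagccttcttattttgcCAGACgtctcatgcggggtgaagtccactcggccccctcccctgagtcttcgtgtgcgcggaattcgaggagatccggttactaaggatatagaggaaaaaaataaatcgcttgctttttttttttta
SMAD3: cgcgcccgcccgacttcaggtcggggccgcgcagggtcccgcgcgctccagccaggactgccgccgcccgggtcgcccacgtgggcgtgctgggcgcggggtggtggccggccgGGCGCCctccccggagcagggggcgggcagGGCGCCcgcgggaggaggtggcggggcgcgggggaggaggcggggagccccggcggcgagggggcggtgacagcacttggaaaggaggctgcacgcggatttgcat
SMAD6 held 1 GTCTAGAC, near the downstream end of the window. SMAD7 held 2 CAGAC matches and SMAD3 held 2 GGCGCC matches. Of the other SMAD genes, SMAD2 and SMAD4, not called, held 1 GGCGCC each. The windows of SMAD1, SMAD5 and SMAD9 held none of the 3 motifs. Whether the motifs bear on the calls was not tested. Over RefSeq promoters of the same length, GTCTAGAC was in 0.176% (48 of 27305), CAGAC in 37.8% and GGCGCC in 16.1%. Of the 49 members with a promoter in the table, 1, 16 and 14 held these motifs in turn. None of the 3 motifs contains another. The member promoters had a median GC content of 68.4% against 58% over all promoters.

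The ID genes moved apart, with ID4 higher, ID2 lower and ID1 and ID3 not called. ID4, which acts in neural and gonadal progenitors, measured 103.7, 101.3 and 107.8 CPM in knockout replicates, against 67.2, 63.6 and 68.5 CPM in wild-type replicates. The groups were far apart relative to their spread, with a log2 difference of 0.65 (SE 0.05, edgeR adjusted p = 2.66e-06). ID2, which holds back differentiation in many lineages, measured 106.6, 100.2 and 109.3 CPM in knockout and 133.4, 125.6 and 130.9 CPM in wild-type replicates. It fell, with a log2 difference of -0.30 (SE 0.05, edgeR adjusted p = 0.000587), and its exons overlap ID2-AS1 by 38 bases. ID1, the gene most often used as a readout of BMP signalling, averaged 6.81 ± 0.991 CPM in knockout and 6.40 ± 1.25 CPM in wild-type cells, with a log2 fold change of 0.09 (SE 0.15). ID3 averaged 47.5 ± 6.22 CPM in knockout and 53.9 ± 8.38 CPM in wild-type cells, with a log2 difference of -0.18 (SE 0.11, edgeR adjusted p = 0.256). ID3 was called lower without wild-type replicate 1, its lowest wild-type library (log2 fold change -0.30, edgeR adjusted p = 0.00598, range over its alternatives 0.00598 to 0.564). With no filter on low counts it was also called lower (log2 fold change -0.19, edgeR adjusted p = 0.02415).

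The 250 bases before a RefSeq start of ID4 (chr6:19837120-19837369, plus strand) and of ID2 (chr2:8681806-8682055, plus strand) are shown, with the same marks, since these genes moved in opposite directions. The ID2 window lies inside the annotated gene.
ID4: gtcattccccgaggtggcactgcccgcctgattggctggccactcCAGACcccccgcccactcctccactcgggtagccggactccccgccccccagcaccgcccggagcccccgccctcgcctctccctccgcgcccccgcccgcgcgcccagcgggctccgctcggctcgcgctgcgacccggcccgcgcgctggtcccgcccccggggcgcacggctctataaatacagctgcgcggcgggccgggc
ID2: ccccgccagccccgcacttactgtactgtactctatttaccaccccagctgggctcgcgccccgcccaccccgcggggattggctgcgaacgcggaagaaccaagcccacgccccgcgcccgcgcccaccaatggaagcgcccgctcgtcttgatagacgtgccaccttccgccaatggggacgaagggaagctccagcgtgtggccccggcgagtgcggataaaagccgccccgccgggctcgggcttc
ID4 held 1 CAGAC and ID2 held none of the 3 motifs in this window. Of the ID genes that were not called, ID3 held 1 CAGAC and ID1 none of the 3. Whether the motif bears on the calls of these 4 genes was not tested. The promoters were GC-rich, at 78.8% for ID4 and 69.2% for ID2.

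Levels of different genes were compared only as CPM per kilobase of annotated exon. In wild-type cells ID2 was highest at 58.9 ± 1.81 CPM per kilobase, above ID3 at 30.0 ± 4.66 and ID4 at 28.4 ± 1.09, which did not differ beyond their spread. In knockout cells ID2 at 47.8 ± 2.13 and ID4 at 44.5 ± 1.41 CPM per kilobase came within their summed SDs of each other, with ID3 at 26.4 ± 3.46. SMAD5 followed at 16.9 ± 0.268 in knockout and 17.9 ± 1.13 CPM per kilobase in wild-type cells, then TGFBR1 at 11.3 ± 0.320 in knockout and 10.9 ± 0.780 in wild-type cells. ACVR1B stood at 10.6 ± 0.247 and ACVR2B at 10.4 ± 0.312 CPM per kilobase in knockout cells, within their spread, against 9.86 ± 0.195 and 7.08 ± 0.559 in wild-type cells. BMP7 led the BMP and GDF ligands with 8.56 ± 0.204 in knockout and 9.07 ± 0.461 CPM per kilobase in wild-type cells. BMP2 ranked 20 of 47 in knockout and 29 of 47 in wild-type cells, at 3.60 ± 0.239 in knockout and 1.95 ± 0.147 CPM per kilobase in wild-type cells, while BMP4 stood at 2.27 ± 0.112 in knockout and 2.83 ± 0.0911 in wild-type cells. So BMP2 was above BMP4 per length in knockout cells and below it in wild-type cells. ACVR1C was the lowest of the tested receptors, at 0.160 ± 0.0132 CPM per kilobase in knockout and 0.557 ± 0.0356 in wild-type cells. Exon lengths are unions over all annotated transcripts, which understates genes with long rare exons such as SMAD2 (36366 bases).

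**Figure D3:**
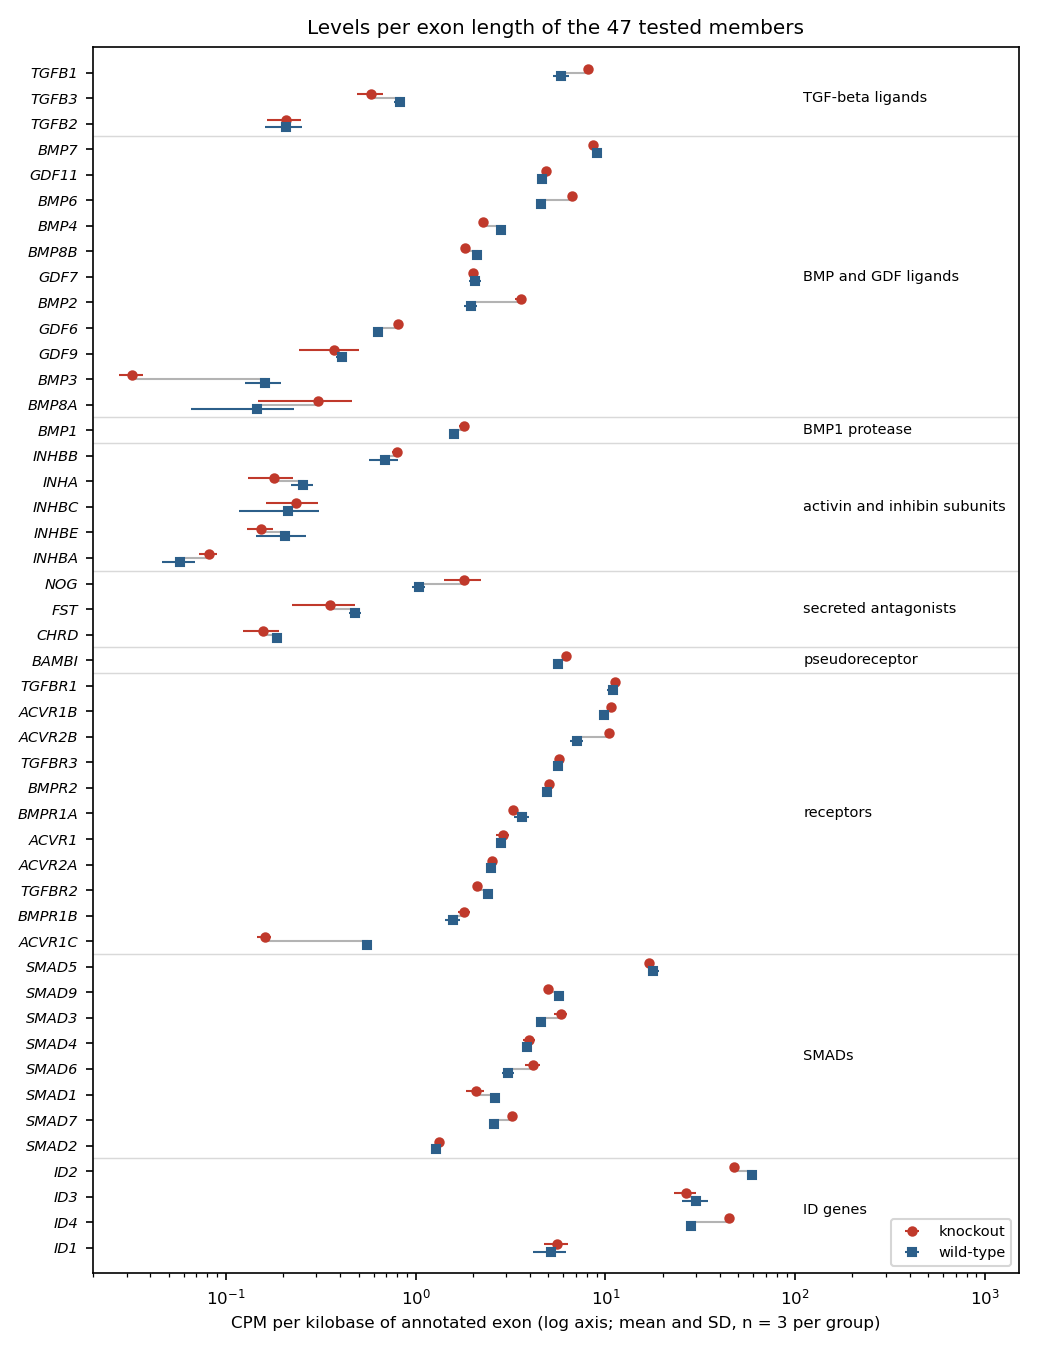
Mean level per kilobase of annotated exon (log axis) of the 47 tested members in knockout (red circles) and wild-type cells (blue squares), with SD over 3 libraries, grouped by role and ordered by the wild-type level. The ID genes ID2, ID3 and ID4 lie highest in both groups, and BMP3 and ACVR1C show the widest gaps between the groups.

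The 17 called members lie on 12 chromosomes. The median log2 fold change of their chromosomal neighbours ran from -0.13 for ACVR1C to 0.23 for ACVR2B, and had the sign of the gene's own value for 12 of the 17. The sign matched for every member called lower, but not for GDF6, BMP2, SMAD3, SMAD6 and SMAD7 among those called higher. The share of matching signs over all tested genes was not computed. Beside ACVR2B, the largest neighbour medians of genes called higher were 0.16 for NOG (21 of 40 neighbours called higher), 0.13 for TGFB1 and 0.13 for BMP6. With each gene's neighbour median removed, 15 of the 17 remained called, SMAD1 and SMAD9 being the exceptions (edgeR adjusted p = 0.0676 and 0.163). BAMBI, BMP1, BMPR1B and GDF11 were then called higher and TGFBR2 lower, which gave 14 higher and 6 lower.

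Genes around the pathway were taken from 7 lists drawn up from general knowledge of it, with earlier results of these data known. Of 148 tested genes, each counted once, 36 were higher and 33 lower, or 46.6% called against 31.8% of all tested genes, with a median log2 fold change of 0.02. The lists were not matched to all tested genes for level. The share called therefore does not test the pathway, and the lists' counts are given as descriptions.

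Of 18 tested genes for latency, secretion and processing of the ligands, 8 fell, 1 rose and 9 were not called, and the median log2 fold change was -0.25. LTBP1, which stores latent TGF-beta in the matrix, averaged 14.8 ± 1.05 CPM in knockout and 31.5 ± 1.11 CPM in wild-type cells (log2 fold change -1.09, SE 0.07, edgeR adjusted p = 9.72e-07). PLAT, a plasminogen activator, averaged 10.3 ± 1.30 CPM in knockout and 19.1 ± 0.656 CPM in wild-type cells. The BMP1-like proteases TLL1 and TLL2 had log2 fold changes of -1.86 and 0.41, at 0.792 and 4.05 CPM in knockout and 2.89 and 3.05 CPM in wild-type cells. TLL2 was the only gene of this list called higher, and 0 were without knockout replicate 3, with the replicate block, with DESeq2 and at an adjusted p under 0.01.

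Of 18 tested genes for other ligands, antagonists and coreceptors, 7 fell, 4 rose and 7 were not called (median log2 fold change -0.12), and 4 were lower without knockout replicate 3. The BMP antagonist CHRDL1 averaged 0.825 ± 0.103 CPM in knockout and 3.14 ± 0.240 CPM in wild-type cells, a log2 fold change of -1.92. BMPER, a BMP-binding protein, and AMHR2, the receptor for anti-Müllerian hormone, had log2 fold changes of -0.83 and -0.70. The secreted protein FSTL1 averaged 163.5 ± 2.09 CPM in knockout and 129.1 ± 8.01 CPM in wild-type cells (log2 fold change 0.34). CRIM1, a transmembrane protein that binds BMPs, and NEO1, a receptor for RGM coreceptors, rose with log2 fold changes of 0.29 and 0.21.

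Of 32 tested intracellular regulators of SMAD signalling, 9 rose, 5 fell and 18 were not called (median log2 fold change 0.05), and 3 were lower without knockout replicate 1 or with the neighbour medians removed. PMEPA1, a TGF-beta-induced inhibitor of the receptor's access to SMAD2 and SMAD3, averaged 11.02 ± 0.574 CPM in knockout and 7.07 ± 0.255 CPM in wild-type cells (log2 fold change 0.64, SE 0.08, edgeR adjusted p = 0.000138). The phosphatase CTDSPL and the deubiquitinase USP4 rose with log2 fold changes of 0.39 and 0.32, while their neighbours' medians were 0.22 and 0.15. The SMAD corepressor SKIL averaged 23.9 ± 1.41 CPM in knockout and 39.0 ± 3.61 CPM in wild-type cells, a log2 fold change of -0.71, where its neighbours' median was -0.58. MAGI2 and the deubiquitinase UCHL5 fell, with log2 fold changes of -0.85 and -0.27.

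Of 24 tested SMAD partners and coactivators, 9 rose, 2 fell and 13 were not called (median log2 fold change 0.14). SNAI2, a repressor of epithelial genes, averaged 60.0 ± 0.925 CPM in knockout and 24.7 ± 2.54 CPM in wild-type cells (log2 fold change 1.28, SE 0.07, edgeR adjusted p = 3.55e-07). The zinc finger gene ZNF521 rose with a log2 fold change of 0.77, and the acetyltransferase EP300 with 0.39, where its neighbours' median was 0.31. WWTR1, which encodes TAZ, averaged 8.83 ± 0.256 CPM in knockout and 24.4 ± 2.16 CPM in wild-type cells, a log2 fold change of -1.47, where its neighbours' median was -0.51. E2F5 (log2 fold change -0.18, edgeR adjusted p = 0.0488) was called only narrowly, and leaving out any 1 of the 6 libraries left 1 gene of this list called lower, as did RLE factors, DESeq2, the replicate block, the 1 CPM filter and removal of the neighbour medians.

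Of 22 tested TGF-beta and activin response genes, 5 rose, 6 fell and 11 were not called (median log2 fold change -0.04), and 3 were higher without knockout replicate 3. The matrix genes COL5A1 and FN1 averaged 19.1 ± 0.741 and 55.0 ± 2.86 CPM in knockout and 11.2 ± 0.382 and 40.8 ± 2.02 CPM in wild-type cells, with log2 fold changes of 0.76 and 0.43. The transcription factor BHLHE40 rose with a log2 fold change of 0.23. COL4A1, a basement membrane collagen, averaged 25.5 ± 0.810 CPM in knockout and 44.0 ± 2.04 CPM in wild-type cells (log2 fold change -0.79). The mesendoderm factor EOMES and the cell cycle inhibitor CDKN1A fell, with log2 fold changes of -1.11 and -0.50.

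Of 19 tested BMP response genes other than ID1 to ID4, 6 rose, 3 fell and 10 were not called (median log2 fold change -0.03), and 5 were lower without wild-type replicate 1. SNAI2 is also on this list. By p-value the next of the genes that rose were TFAP2A, a neural crest factor, and UNC5B, a netrin receptor, with log2 fold changes of 0.35 and 0.32. GATA3 averaged 1.98 ± 0.0246 CPM in knockout and 4.56 ± 0.642 CPM in wild-type cells, a log2 fold change of -1.20, where its neighbours' median was -0.60. TBX3 and the alkaline phosphatase gene ALPL fell, with log2 fold changes of -0.25 and -0.45.

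Of 17 tested kinases and adaptors of SMAD-independent TGF-beta signalling, 4 rose, 2 fell and 11 were not called (median log2 fold change 0.01). TAB1 and TAB2, partners of the TAK1 kinase, rose, with log2 fold changes of 0.39 and 0.38, and their neighbours' medians were 0.34 and 0.25. LIMK2, which acts on actin, rose with 0.43, and its neighbours' median was 0.30. The adaptor SHC1 and the polarity gene PARD6A had log2 fold changes of -0.20 and -0.95. Without wild-type replicate 2 or knockout replicate 1, 1 gene of this list was called lower, and without knockout replicate 3 none was. With each gene's neighbour median removed, 1 gene of the list was called higher.

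**Figure D4:**
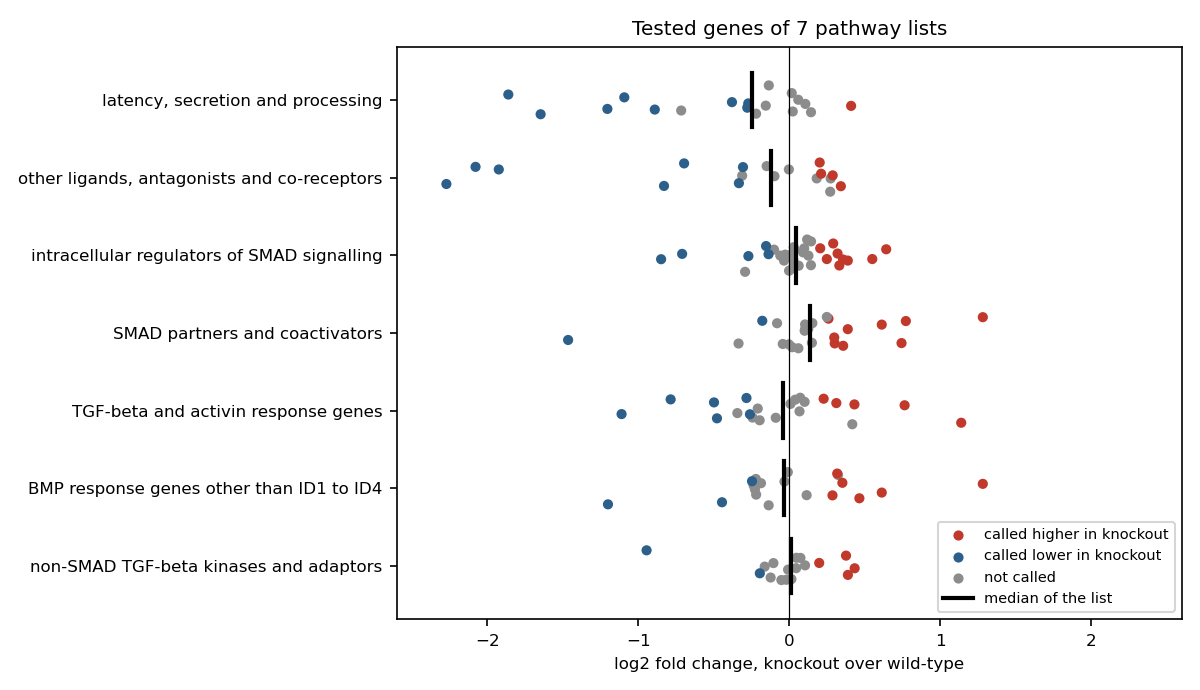
Log2 fold change, knockout over wild-type, of the tested genes of 7 pathway lists (points, coloured by call in edgeR) with the median of each list (black bars). The list for latency, secretion and processing has the lowest median, -0.25, and the list of SMAD partners and coactivators the highest, 0.14.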

How the data were processed

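The authors deposited raw read counts, with a row for each gene symbol and a column for each library. Per the submitters' processing notes, the build was hg38 and the tools included HTSeq 0.9.1, STAR 2.4, DESeq2, Picard and Trim Galore, with no role or order stated. The annotation release is not given in the sources used here. Columns were matched to samples by the column names in the labels. No row lacked a gene name. No pair of replicates was alike within sampling noise: chi-square over its degrees of freedom was 3.30 to 13.6.

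The test was run on these counts in edgeR 4.0.16 (R 4.3.3). The filterByExpr step kept 18061 genes, TMM scaled the libraries, and knockout was compared with wild-type by the quasi-likelihood test without covariates. Benjamini-Hochberg adjustment ran over all tested genes, with a threshold of 0.05. The procedure was tested on simulated data. CPM are per 1000000 TMM-scaled counts of tested genes. Marker sums use unscaled totals. Floors cover counting error only. Positions and exon lengths came from GENCODE 29 (hg38) for all 57 members and 77.7% of tested genes. Neighbour medians took the 20 nearest genes averaging 2 CPM or more on either side, and 30 in all for ID2. Promoters are RefSeq's.

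Named were members that were called or reached 1 CPM, and up to 3 called genes per list and direction with the smallest p and at least 1 CPM. Members not reaching this were named after their values were seen. The members and lists were chosen with earlier results of these data known. Alternatives were RLE factors, library size only, no filter, a 1 CPM filter, DESeq2 1.42.0, limma-voom (limma 3.58.1), the replicate block, each library left out, the neighbour median removed and a threshold of 0.01.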

Additional observations from a re-analysis of the deposited data

How the results depend on the processing

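Of the 17 called members, 12 were called under all alternatives that gave a value and none reversed. Requiring 1 CPM in 3 libraries left BMP3 untested. With RLE factors, library size only and limma-voom, 10 members were higher and 7 lower, and with DESeq2 9 and 5. Leaving out each library gave 9 to 11 higher and 4 to 7 lower, and the pathway list genes gave 30 to 42 higher and 25 to 39 lower. An adjusted p under 0.01 left 9 members higher and 3 lower, since GDF6, TGFB3, BMP4, SMAD1 and SMAD9 did not reach it. The cause of these changes was not tested beyond fewer samples or a stricter threshold.

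The replicate numbers did not pair the libraries, since deviations from group means correlated at r = -0.657, -0.172 and -0.184 between libraries of the same number. Between knockout and wild-type libraries of different number, r ran from -0.555 (knockout replicate 2 with wild-type replicate 3) to 0.61 (knockout replicate 1 with wild-type replicate 3). The source of this shared variation was not tested. With the replicate number as a block, 9 members were higher and 6 lower (GDF6 at edgeR adjusted p = 0.0836 and SMAD9 at 0.1 were not called), and 32 list genes were higher and 27 lower.

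Among the members named and HLTF, signs turned for HLTF and 8 uncalled members. List genes were recomputed as counts of calls. With the neighbour median removed, HLTF stood at 0.017 (edgeR adjusted p = 0.836) and SMAD5 at 0.0036 on the log2 scale, and with no filter TGFB2 stood at -0.0035. Leaving out each library gave log2 fold changes of -0.026 to 0.095 for ACVR1, -0.0081 to 0.074 for ACVR2A, -0.074 to 0.029 for GDF7, -0.32 to 0.15 for GDF9, -0.016 to 0.26 for ID1, -0.15 to 0.17 for TGFB2 and -0.0023 to 0.073 for TGFBR3. Depth limits members under about 1 CPM.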
